A study of Mus musculus with 4 samples.

Results

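The genes described here are 41 listed genes of DNA break repair, read in RNA from wt and Top2β-null mouse embryonic fibroblasts (MEF cells). They were taken by symbol from the deposited count table and placed in 4 branches by their known roles: 14 genes of break signalling, 16 of homologous recombination, 8 of end joining and 3 of single-strand break repair. All 41 were found among the 54842 gene identifiers of the table, and all 41 passed the filter on low counts that left 25085 genes for testing. The libraries, 2 per genotype, were made from total RNA of untreated cells after removal of ribosomal RNA. Top2β is a DNA topoisomerase that passes a DNA duplex through a transient break in another, and the Top2β-null cells are those labelled as null for its gene. The study describes the Top2β-null cells as coming from Top2β-null mice and as a gift of other laboratories. Its methods cite another source for MEF cells in general and do not name that of the wt cells compared here. The origin of the cells and the genotype therefore cannot be told apart. Nothing in the labels says that the libraries of a genotype came from separate cultures, so p-values measure the spread between these libraries, which may be technical.

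A DNA double-strand break is first bound by the MRN complex (Mre11a, Rad50, Nbn), which activates the kinase Atm. Atm phosphorylates the histone variant H2AX, and Mdc1, the ubiquitin ligases Rnf8 and Rnf168, and Trp53bp1 gather on the marked chromatin. The break is then either resected and repaired from the sister chromatid by homologous recombination, or joined directly after the Ku heterodimer (Xrcc5 and Xrcc6) has bound its ends. Homologous recombination is used in S and G2 phase, whereas end joining acts throughout the cell cycle. Top2 enzymes are a source of such breaks when their cleavage step is trapped, and end joining repairs many of them.

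The count totals lay between 133116830 and 149647278 per library. For Top2b itself, normalized counts were 18259 and 18465 in wt against 3879 and 3789 in Top2β-null libraries, or 20.9% of the wt mean (log2 fold change -2.26, standard error 0.0271, adjusted p = 6.6e-19). All adjusted p-values are from the quasi-likelihood test of edgeR after Benjamini-Hochberg adjustment. A normalized count is a count scaled to a common effective library size, and log2 fold changes are Top2β-null over wt throughout. Of 10 fibroblast markers, 9 were tested, with 4 higher and 4 lower. Dcn (log2 fold change 4.99), Thy1 (2.07), Pdgfrb (1.88) and Pdgfra (1.16) rose. Col1a1 (-1.38), Col3a1 (-1.01), Vim (-0.84) and Fn1 (-0.36) fell, and Col1a2 (-0.038) did not pass. The summed normalized counts of fibroblast markers were 1300519 and 1325161 in wt and 885712 and 890677 in Top2β-null libraries. Summed leukocyte markers stood at 2429 and 2508 in wt and at 1356 and 1358 in Top2β-null libraries, with Adgre1, Tyrobp and Cd3e among those at 3 counts or fewer. The falling sum was that of Cd68 (1641 and 1688 in wt, 302 and 289 in Top2β-null libraries). The other 3 leukocyte markers tested, Itgam (log2 fold change 4.68), Fcer1g (0.74) and Csf1r (0.36), rose. The value for Itgam rests on few counts, with a mean of 0.988 normalized counts in wt and 28.3 in Top2β-null libraries. Fcer1g was also low, with 30.3 and 33.8 in wt and 53.9 and 53.5 in Top2β-null libraries. Epithelial markers summed to 83.8 and 92.7 in wt against 23.8 and 26.7 in Top2β-null libraries, and endothelial markers to 239 and 212 against 367 and 369. Among endothelial markers, Kdr (log2 fold change 1.54) and Vwf (0.86) rose, Tek fell (-2.54), and Pecam1 and Cdh5 did not pass. In bulk RNA, fewer cells that express a gene and less RNA per cell cannot be told apart.

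The promoters of 3 genes are shown because these genes carry the largest rise among the members (Brca2), the largest fall (Xrcc6), and the opposite change in the partner of the latter (Xrcc5). Each line gives the 250 bases before the start of the RefSeq gene on GRCm38.p6, 5′ to 3′ on the forward strand, and capitals mark matches to searched motifs. The Brca2 window (chr5:150522371-150522620) holds an E2F motif 168 bases before the start. The Xrcc6 window (chr15:82016119-82016368) holds 3 SP1 motifs and an E2F motif 46 bases before the start. This RefSeq start lies inside the GENCODE model of Xrcc6, which begins upstream at 81987835. The Xrcc5 window (chr1:72307171-72307420) holds an inverted CCAAT box and none of the other motifs. The GC content is 54.4% for Brca2, 65.2% for Xrcc6 and 44.8% for Xrcc5.
Brca2: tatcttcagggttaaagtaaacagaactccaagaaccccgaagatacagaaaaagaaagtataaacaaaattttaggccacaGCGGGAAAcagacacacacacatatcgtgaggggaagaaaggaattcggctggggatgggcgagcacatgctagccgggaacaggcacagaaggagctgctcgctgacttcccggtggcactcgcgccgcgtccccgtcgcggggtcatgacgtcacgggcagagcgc
Xrcc6: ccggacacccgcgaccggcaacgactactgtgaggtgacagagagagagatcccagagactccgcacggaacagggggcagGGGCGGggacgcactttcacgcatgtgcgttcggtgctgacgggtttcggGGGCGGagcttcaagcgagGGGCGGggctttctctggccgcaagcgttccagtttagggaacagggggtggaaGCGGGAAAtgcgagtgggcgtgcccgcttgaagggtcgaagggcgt
Xrcc5: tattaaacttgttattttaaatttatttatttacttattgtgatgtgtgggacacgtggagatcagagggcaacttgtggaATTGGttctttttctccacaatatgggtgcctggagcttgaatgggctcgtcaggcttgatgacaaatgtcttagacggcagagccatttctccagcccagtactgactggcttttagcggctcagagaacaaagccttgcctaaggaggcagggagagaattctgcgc

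The branches were compared first. Of the 41 genes, 19 had a higher level in Top2β-null cells and 11 had a lower one at an adjusted p below 0.05, and 11 did not pass. Among all genes tested, 32.8% were higher and 33.7% lower, and among the 16656 genes with a mean normalized count above 100, to which all 41 belong, 37.3% were higher and 40.3% lower. Homologous recombination had 10 of 16 genes higher and 3 lower, with a median log2 fold change of 0.14, which was 0.057 after the median of each gene's chromosome was subtracted. End joining had 1 of 8 higher and 4 lower, with a median of -0.26, which was -0.24 after that subtraction. Break signalling had 6 of 14 higher and 4 lower, with a median of 0.06 that was 0.093 after the subtraction, 0.13 with scaling to the total count and 0.10 without Top2β-null replicate 2. Single-strand break repair had 2 of 3 higher and 0 lower, with a median of 0.092 that was 0.15 after the subtraction, 0.16 with scaling to the total count and 0.061 without wt replicate 1. The medians of all 41 genes and of all genes with a mean above 100 were 0.065 and -0.015.

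**Figure D1:**
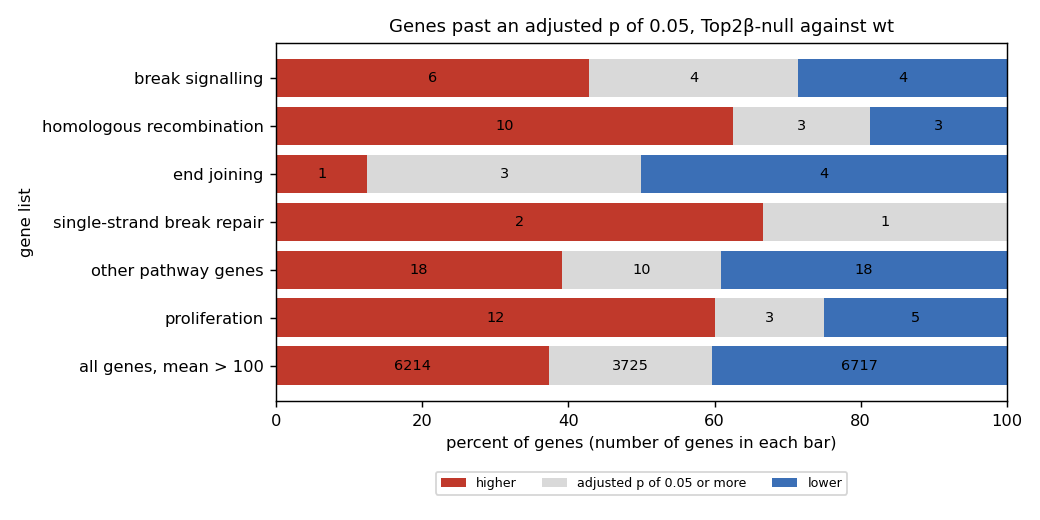
Share of genes (horizontal axis, percent; numbers in the bars are genes) that were higher, lower or not past an adjusted p of 0.05 in Top2β-null against wt MEF cells, for each branch, for 2 comparison lists and for all genes with a mean normalized count above 100. Homologous recombination has 10 of 16 genes in the higher class and end joining 1 of 8.

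Branch medians were also taken in each library. Relative to the wt mean, the median log2 level of the homologous recombination genes was 0.14 and 0.15 in the Top2β-null libraries, and that of the end joining genes was -0.26 and -0.24. Break signalling gave 0.084 and 0.037, farther apart than its wt libraries (-0.0068 and 0.0068), and single-strand break repair 0.10 and 0.086, while the wt libraries lay within 0.016 of 0 in every branch. No test of one branch against another was run, and the medians are a description.

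The sizes of the changes were compared with those of other genes. The median absolute log2 fold change was 0.21 over the 41 genes and 0.35 over genes with a mean above 100, and 7.32% of the former against 36.4% of the latter passed an absolute value of 0.5. The 3 members past it were Brca2, Rad51d and Xrcc6. The median was 0.21 over 46 other genes of these pathways, of which 17.4% passed 0.5, and 0.22 over 20 proliferation genes, of which 10.0% did. By the cut-offs of the study's methods (adjusted p below 0.05, absolute log2 fold change above 1, mean normalized count above 100), Brca2 was called higher and 0 members were called lower, where 5.52% and 5.25% of all genes tested were called. At the adjusted p alone, 11 members were lower with edgeR and 10 with DESeq2. In 23 members both Top2β-null libraries lay above both wt libraries, in 13 they lay below, and in 5 (Chek1, Rnf168, Xrcc2, Blm and Nhej1) the groups overlapped. Of the 16656 genes with a mean above 100, 7139 lay above, 7619 below and 1898 overlapped in the same way, so that the share of members with overlapping groups was near that of all such genes.

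**Figure D2:**
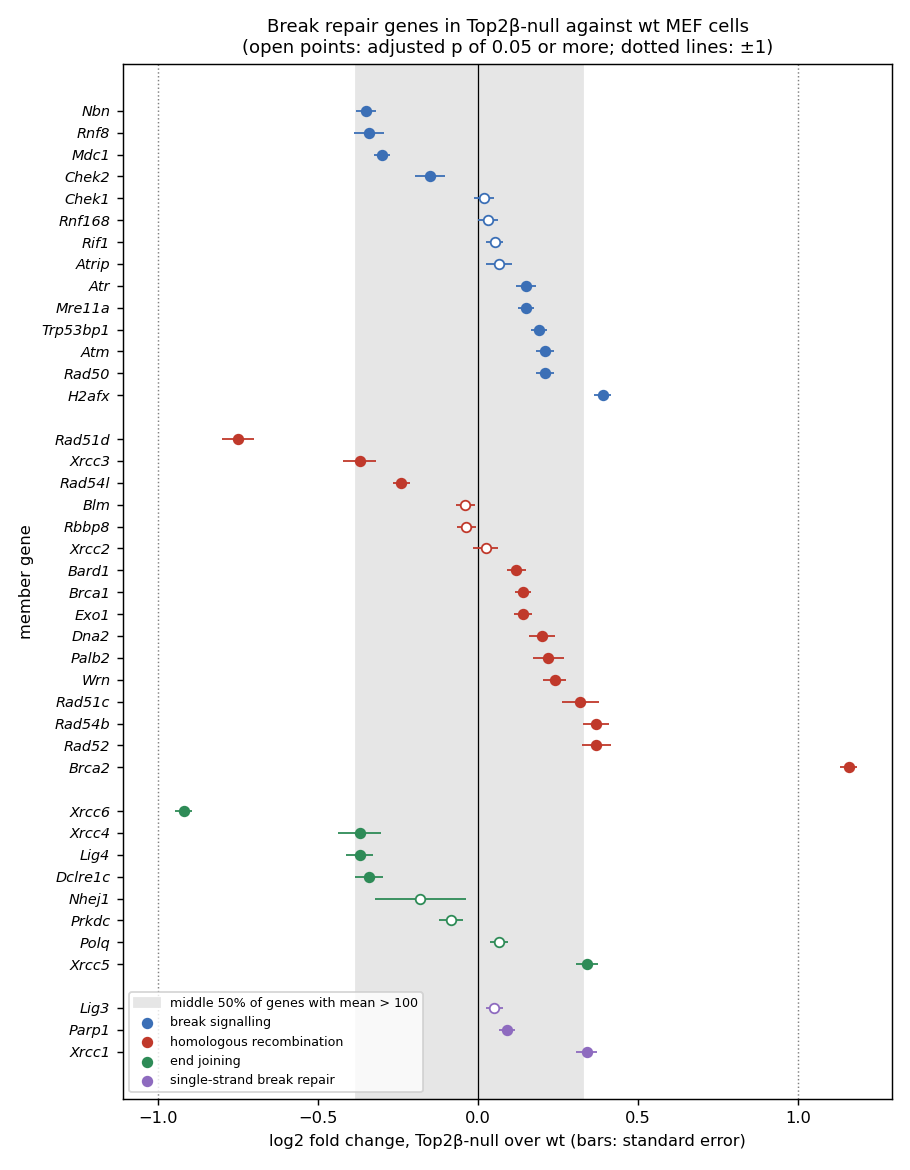
Log2 fold change of each of the 41 genes in Top2β-null against wt MEF cells (points, with standard errors as bars), coloured by branch, with open points at an adjusted p of 0.05 or more. The grey band holds the middle 50% of genes with a mean normalized count above 100 (-0.38 to 0.33), and Brca2 is the only point past 1.

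Among the break signalling genes, H2afx changed most. It encodes H2AX, the histone variant that is phosphorylated around breaks, and had 17856 and 18411 normalized counts in wt and 23492 and 24036 in Top2β-null libraries. Both Top2β-null libraries were thus higher by 1.31-fold on average (log2 fold change 0.39, standard error 0.026, adjusted p = 1.4e-09). Atm, the kinase that starts the response, had 12889 and 13367 normalized counts in wt and 15577 and 14831 in Top2β-null libraries (log2 fold change 0.21, standard error 0.029, adjusted p = 8.4e-06). Trp53bp1, whose product limits resection and favours end joining, had 8424 and 8448 in wt and 9671 and 9599 in Top2β-null libraries (0.19, standard error 0.025, adjusted p = 4.7e-06). H2afx, Atm and Trp53bp1 were each higher in both Top2β-null libraries than in either wt library. Mre11a (0.15) and Rad50 (0.21), which form the catalytic and tethering core of the MRN complex, and Atr (0.15), the kinase of single-stranded DNA, were the other signalling genes that rose. Without wt replicate 1, the log2 fold change of Atr was 0.088. With chromosome medians subtracted, Mre11a came to 0.063, Rad50 to 0.31 and Atr to 0.062.

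Nbn, the MRN subunit that recruits Atm, fell while its partners rose. It had 5350 and 5507 normalized counts in wt and 4219 and 4312 in Top2β-null libraries, a mean of 78.6% of the wt level (log2 fold change -0.35, standard error 0.0313, adjusted p = 6.0e-08). Mdc1, which binds phosphorylated H2AX, had 19921 and 19883 normalized counts in wt and 16030 and 16384 in Top2β-null libraries (-0.30, standard error 0.0245, adjusted p = 2.1e-08). Rnf8, the ubiquitin ligase that Mdc1 recruits, had 2142 and 2199 in wt and 1749 and 1690 in Top2β-null libraries (-0.34, standard error 0.0459, adjusted p = 8.0e-06). For Nbn, Mdc1 and Rnf8 alike, both Top2β-null libraries lay below both wt libraries. Less the median of its chromosome, Nbn stayed lower (-0.24), whereas Mdc1 and Rnf8 turned to 0.16 and 0.12. Chek2, an effector kinase of Atm, had a log2 fold change of -0.15 (adjusted p = 0.00823). The call was lost with DESeq2 (adjusted p = 0.055) and with scaling to the total count (adjusted p = 0.12). Without Top2β-null replicate 2 the value for Chek2 was -0.11. Atrip (0.067), Chek1 (0.018), Rnf168 (0.031) and Rif1 (0.053) did not pass the test, with adjusted p from 0.0927 for Rif1 to 0.639 for Chek1. With scaling to the total count, Atrip (0.14, adjusted p = 0.0074), Chek1 (0.088, adjusted p = 0.023) and Rnf168 (0.10, adjusted p = 0.012) passed, and without wt replicate 2 Atrip came to 0.031. Rif1, which acts with Trp53bp1 against resection, passed without either Top2β-null replicate (adjusted p = 0.015 without replicate 1 and 0.0011 without replicate 2) and with genes-only, total-count and unfiltered fits (adjusted p = 0.04, 0.0006 and 0.02). Without wt replicate 1 its log2 fold change was 0.017 (adjusted p = 0.72), and without wt replicate 2 the adjusted p was 0.14.

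**Figure D3:**
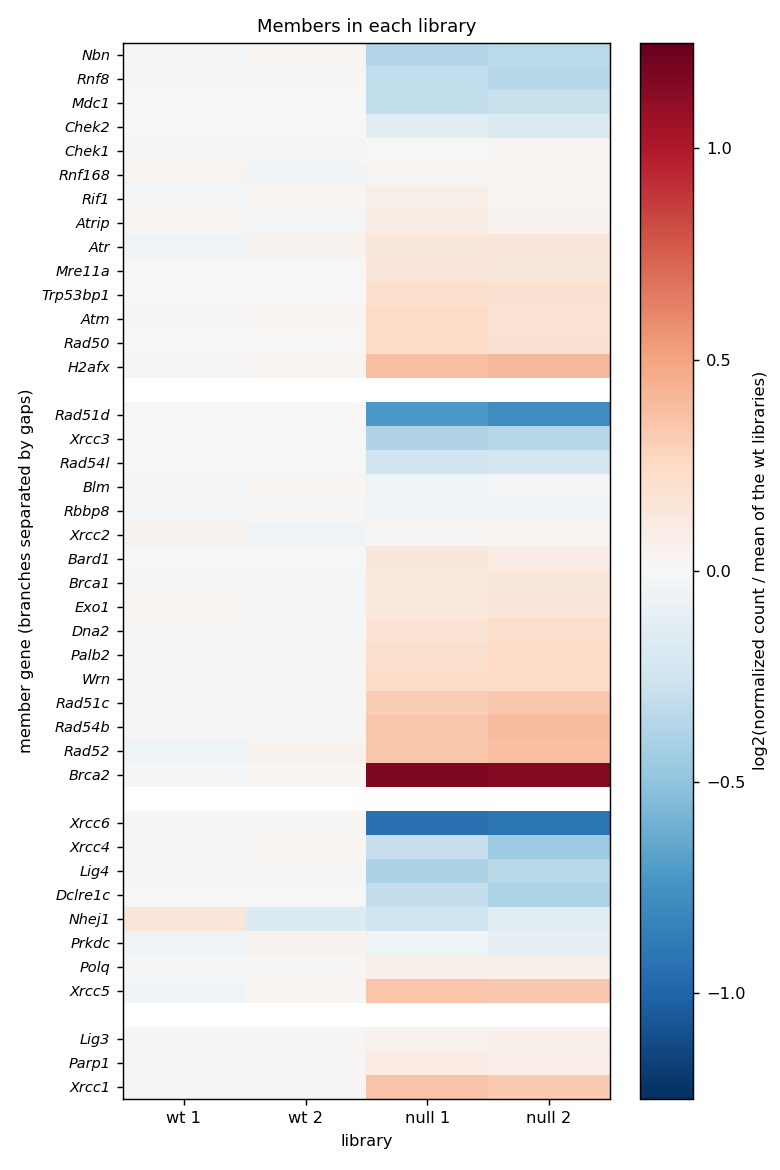
Level of each of the 41 genes in each of the 4 libraries, as the log2 of its normalized count over the mean of the wt libraries (colour scale), with genes in rows grouped by branch. Brca2 is the darkest red and Xrcc6 and Rad51d the darkest blue rows, and both Top2β-null columns are alike in each.

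Brca2 stood apart among the homologous recombination genes. Its product is a mediator of strand exchange on resected DNA, and the gene lies on chromosome 5 of GRCm38 from 150522630 to 150570329 on the forward strand. Normalized counts of Brca2 were 6503 and 6729 in wt against 14833 and 14669 in Top2β-null libraries, so the groups do not overlap. Its level was 2.23-fold higher (log2 fold change 1.16, standard error 0.0266, adjusted p = 1.8e-15), and the log2 fold change stayed between 1.12 and 1.23 over 10 alternative fits. Gm42529, an antisense gene that shares 0.3% of the exonic bases of Brca2, rose from 83.8 and 76.3 to 193 and 179 normalized counts (log2 fold change 1.22).

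The genes that act beside Brca2 rose less. Palb2, the bridge between Brca1 and Brca2, rose by 0.22 on the log2 scale (standard error 0.0477, adjusted p = 6.3e-04). Brca1, which promotes resection and recruits Palb2, had 9640 and 9460 normalized counts in wt and 10471 and 10543 in Top2β-null libraries (0.14, standard error 0.0252, adjusted p = 1.6e-04), so that both Top2β-null libraries lay above both wt libraries. Bard1, the obligate partner of Brca1, was also higher (0.12, adjusted p = 0.00181). With chromosome medians subtracted, Palb2 came to 0.16, Brca1 to 0.23 and Bard1 to 0.011.

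Rad51c, Rad51d, Xrcc2 and Xrcc3, related genes whose products assist strand exchange, did not share a direction. Rad51d lies on chromosome 11 from 82876434 to 82890614 on the reverse strand and had 2020 and 2003 normalized counts in wt and 1219 and 1177 in Top2β-null libraries. Its mean level in Top2β-null cells was 59.5% of wt (log2 fold change -0.75, standard error 0.0485, adjusted p = 9.7e-10), the largest fall in this branch. Xrcc3 had 1512 and 1515 normalized counts in wt and 1166 and 1184 in Top2β-null libraries (-0.37, standard error 0.0503, adjusted p = 8.8e-06). Rad51c rose (0.32, standard error 0.0578, adjusted p = 1.4e-04), and Xrcc2 had a log2 fold change of 0.024 (adjusted p = 0.611).

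Of the genes for strand annealing and exchange, Rad52, an annealing factor, had 1912 and 2047 normalized counts in wt and 2525 and 2575 in Top2β-null libraries (log2 fold change 0.37, standard error 0.0461, adjusted p = 3.3e-06). Less the median of its chromosome, Rad52 came to 0.0073. The DNA translocase Rad54b had 2402 and 2351 in wt and 3021 and 3124 in Top2β-null libraries (0.37, standard error 0.0406, adjusted p = 6.5e-07). Rad54l, the related translocase, went the other way (-0.24, standard error 0.0262, adjusted p = 7.6e-07). Rad52 and Rad54b were higher in both Top2β-null libraries, but 35.8% of the exonic bases of Rad54b are shared with Fsbp on the same strand, whose own log2 fold change was 0.43. The nucleases Exo1 (0.14) and Dna2 (0.20), which carry out long-range resection, and the RecQ helicase Wrn (0.24) also rose. Less the median of their chromosomes, Exo1 came to 0.031, Dna2 to 0.58 and Wrn to 0.12. Rbbp8, the resection factor also known as CtIP (-0.036, adjusted p = 0.308), and the RecQ helicase Blm (-0.039, adjusted p = 0.278) did not pass the test.

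In end joining, the subunits of Ku changed in opposite directions. Xrcc6 encodes the smaller Ku subunit and lies on chromosome 15 from 81987835 to 82040085 on the forward strand. Its normalized counts were 10757 and 10993 in wt against 5699 and 5768 in Top2β-null libraries, or 52.7% of the wt mean (log2 fold change -0.92, standard error 0.0263, adjusted p = 2.5e-14). Xrcc5, the larger subunit, on chromosome 1 from 72307421 to 72394952, had 3535 and 3682 in wt and 4585 and 4556 in Top2β-null libraries (0.34, standard error 0.0343, adjusted p = 2.3e-07). The groups did not overlap for either gene, and over 10 alternative fits the log2 fold change of Xrcc6 stayed between -0.95 and -0.85 and that of Xrcc5 between 0.30 and 0.41. Less the median of their chromosomes, the values were -0.35 for Xrcc6 and 0.23 for Xrcc5.

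Lig4 and Xrcc4, which act in the ligation step, were also lower. Lig4, the end joining ligase, had 2978 and 2930 normalized counts in wt and 2240 and 2316 in Top2β-null libraries (log2 fold change -0.37, standard error 0.041, adjusted p = 6.4e-07). Xrcc4, the scaffold that stabilises Lig4, had 862 and 891 in wt and 718 and 641 in Top2β-null libraries (-0.37, standard error 0.0672, adjusted p = 1.6e-04). Dclre1c, the end-processing nuclease Artemis, was lower too (-0.34, standard error 0.044, adjusted p = 4.7e-06). Lig4, Xrcc4 and Dclre1c each lay below both wt libraries in both Top2β-null libraries.

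Prkdc, the catalytic subunit of the DNA-dependent kinase that Ku recruits, had 3670 and 3880 normalized counts in wt and 3632 and 3493 in Top2β-null libraries (log2 fold change -0.084, standard error 0.0388, adjusted p = 0.0707). Both Top2β-null values were below both wt values, and without wt replicate 1 the adjusted p was 0.0044. It ran from 0.21 to 0.54 with any of the other libraries left out, was 0.23 with DESeq2, and was 0.77 with scaling to the total count (log2 fold change -0.014). Nhej1, an accessory factor of the ligation complex, had the fewest counts of all members, and the 95% interval of its log2 fold change (-0.18, adjusted p = 0.276) ran from -0.463 to 0.096. The value was -0.035 without wt replicate 1 and -0.35 without wt replicate 2. Polq, the polymerase of the alternative pathway that joins ends at short homologies, had 5890 and 5983 in wt and 6209 and 6212 in Top2β-null libraries (0.065, standard error 0.0276, adjusted p = 0.0501). Polq lay at the threshold. Its adjusted p was 0.01 without Top2β-null replicate 1, 0.045 without replicate 2 and 0.41 without wt replicate 1, and over the alternatives that kept all libraries it ran from 0.00047 to 0.14.

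Single-strand break repair was read from 3 genes. Xrcc1, the scaffold of this pathway, had 3672 and 3729 normalized counts in wt and 4750 and 4633 in Top2β-null libraries (log2 fold change 0.34, standard error 0.0331, adjusted p = 1.4e-07). Parp1, the enzyme that senses the break and makes poly(ADP-ribose), had 16939 and 17338 in wt and 18350 and 18190 in Top2β-null libraries (0.092, standard error 0.0247, adjusted p = 0.00391). Its log2 fold change was 0.061 without wt replicate 1, and it turned to -0.017 less the median of its chromosome. Lig3, the ligase bound to Xrcc1, had 7962 and 8146 in wt and 8283 and 8411 in Top2β-null libraries (0.051, standard error 0.0261, adjusted p = 0.0976), and it passed without Top2β-null replicate 1 (adjusted p = 0.002), with genes-only and total-count scaling (0.04 and 0.0008) and with the filter at 100 counts (0.047). Without wt replicate 1 the log2 fold change of Lig3 was 0.02 (adjusted p = 0.67), and without wt replicate 2 the adjusted p was 0.22. All 3 genes were higher in both Top2β-null libraries than in either wt library. Of the exonic bases of Lig3, 25.1% overlap Rffl on the opposite strand, which had a log2 fold change of 0.97, and whether strand was used in counting is not given in the sources used here.

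Other overlaps were smaller as a share of exonic bases. Shared exonic bases made up 16.0% of Atrip (with Trex1), 15.4% of Rad54l (with Lrrc41), 15.0% of Trp53bp1 (with Tubgcp4), 13.2% of Rnf8 (with Gm28043), 10.2% of H2afx (with Gm44335, log2 fold change 0.68) and 7.7% of Xrcc6 (with Desi1, log2 fold change -0.81). Atrip and Rnf8 share their strand with the other gene, and the remaining overlaps are antisense. On its 141 bases, Gm44335 had 6374 and 6582 normalized counts in wt and 10097 and 10594 in Top2β-null libraries. How far the rise of H2afx depends on this overlap was not tested. The coding sequence of H2afx also resembles those of other H2A genes, and how reads with several alignments were assigned is not given in the sources used here.

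Products of partner genes work together, so their ratio within a library was taken for 17 pairs, which needs no scaling between libraries. The count ratio of Xrcc5 to Xrcc6 was 0.329 and 0.335 in wt against 0.804 and 0.79 in Top2β-null libraries, a 2.4-fold shift (log2 difference 1.26, pooled replicate SD 0.0192). The ratio of Brca2 to Palb2 went from 4.34 and 4.42 to 8.54 and 8.18 (log2 difference 0.93, SD 0.0335). Both shifts combine a large change in one gene with a smaller change in its partner.

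In the MRN complex, the ratio of Nbn to Mre11a fell from 0.696 and 0.725 to 0.497 and 0.511 (log2 difference -0.49, SD 0.035), whereas that of Rad50 to Mre11a moved by 0.062 (SD 0.0143). Rad51c to Xrcc3, which form one complex, shifted by 0.69 (SD 0.0123), and Rad51d to Xrcc2, neighbours in another, by -0.77 (SD 0.0502). Partners that kept their ratio within replicate spread were Brca1 and Bard1 (0.017, SD 0.038), Lig4 and Xrcc4 (-0.0056, SD 0.111) and Nhej1 and Xrcc4 (0.19, SD 0.229). Atrip to Atr moved by -0.08 (SD 0.0726), near its spread. Smaller shifts beyond the spread were seen for Rnf168 to Rnf8 (0.37, SD 0.0576), Chek2 to Atm (-0.37, SD 0.0318), Lig3 to Xrcc1 (-0.29, SD 0.0294), Dclre1c to Prkdc (-0.25, SD 0.0517), Rif1 to Trp53bp1 (-0.14, SD 0.0252), Chek1 to Atr (-0.13, SD 0.0357) and Brca1 to Trp53bp1 (-0.054, SD 0.0188). Several of these genes appear in more than 1 pair, so the shifts are not independent.

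**Figure D4:**
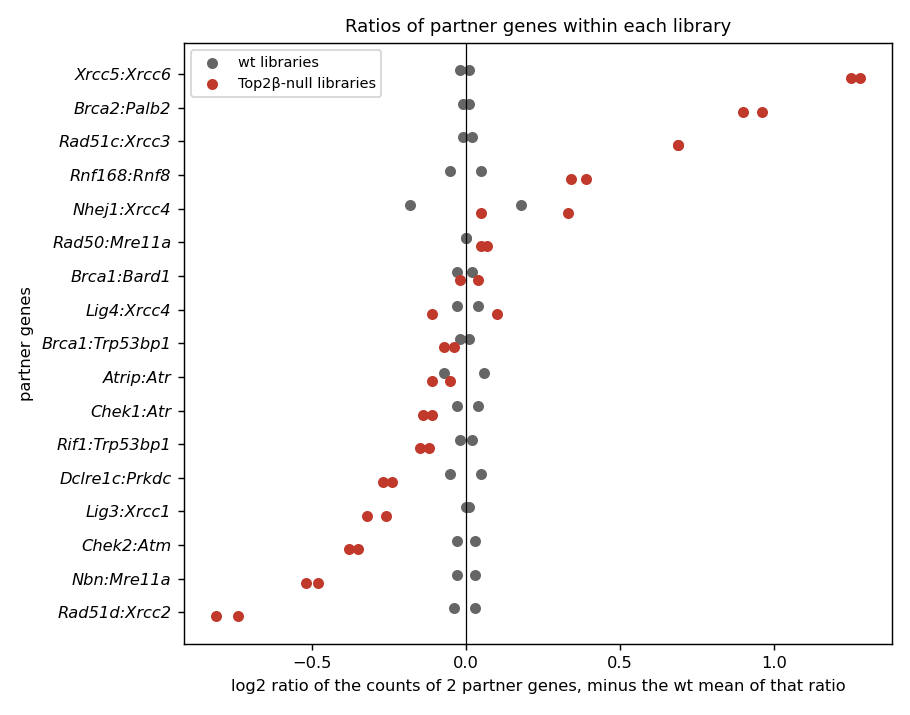
Log2 ratio of the counts of 17 pairs of partner genes in each library, minus the mean of that ratio in the wt libraries (grey points wt, red points Top2β-null). Xrcc5 to Xrcc6 lies farthest to the right, with a shift of 1.26, and Rad51d to Xrcc2 farthest to the left, with -0.77.

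Levels per kilobase of exon allow members to be set in order. The length is the union of all annotated exons of a gene, such as 23629 bases for Atr. It can exceed the length of a single transcript, so the order depends on the annotation. H2afx was highest in both genotypes, with 13102 ± 284 normalized counts per kb in wt against 17170 ± 278 in Top2β-null cells (SD, n = 2). Parp1 followed with 3238 ± 53.3 and 3452 ± 21.4 (SD, n = 2). Xrcc6 ranked 4 in wt, with 2430 ± 37.2, and 10 in Top2β-null cells, with 1281 ± 10.9 (SD, n = 2), while Xrcc5 went from rank 7 (1412 ± 40.8) to rank 5 (1789 ± 8.02). In wt cells Xrcc6 thus stood above Xrcc5 per kb, and in Top2β-null cells below it.

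Brca2 moved from rank 27, with 485 ± 11.7 normalized counts per kb, to rank 15, with 1081 ± 8.49 (SD, n = 2). Rad51d moved from rank 26 (542 ± 3.11) to rank 34 (323 ± 8.07). Several neighbours in the wt order did not differ beyond their spread, among them Chek2 (621 ± 1.84), Blm (614 ± 14.3) and Polq (613 ± 6.75). The lowest member was Nhej1, at 164 ± 25.1 for wt against 144 ± 8.26 for Top2β-null cells (SD, n = 2), and Rad51c, Rnf8, Palb2 and Xrcc4 stood at 178, 185, 206 and 208 per kb in wt.

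Of 46 other genes of these pathways, 18 were higher, 18 lower and 10 did not pass, with a median log2 fold change of -0.022. The largest rises were in Polm, an end joining polymerase (684 and 764 in wt, 1759 and 1791 in Top2β-null libraries, log2 fold change 1.29, adjusted p = 1.1e-11), Rpa3 (0.84) and Ercc1 (0.81). The largest falls were in Rpa1 (33573 and 33848 in wt, 17421 and 17427 in Top2β-null libraries, log2 fold change -0.95, adjusted p = 6.9e-15), Rad1 (-0.89) and Helb (-0.81). Rpa1 and Rpa3 encode subunits of the same single-strand binding complex RPA, and Rad1 belongs to the checkpoint clamp that activates Atr. Ercc1 is part of a structure-specific nuclease, and Helb is a helicase that limits resection. Within RPA, Rpa2 (-0.35) fell with Rpa1 while Rpa3 rose.

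Homologous recombination genes are expressed mostly in cycling cells, so 20 proliferation genes were read beside them. Of these, 12 were higher and 5 lower, with a median log2 fold change of 0.13, against 0.14 for homologous recombination. Their summed normalized counts were 397617 and 407582 in wt and 423018 and 425069 in Top2β-null libraries. Ccne1 (0.97) and Aurkb (0.81) rose most, Mki67 had 0.13, and Pcna (-0.33), Bub1 (-0.26), Cdk1 (-0.25), Aurka (-0.20) and Mcm3 (-0.14) fell. The part of proliferation in the branch medians was not tested.

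The members were set beside the genes around them. The median log2 fold change of genes within 1 Mb had the sign of the member's own in 25 of 41 cases and the opposite sign in 16, among them Xrcc4, with 3 of 4 such genes higher and 0 lower, Dna2 (0.20 beside -0.49), Trp53bp1 (0.19 beside -0.24) and Xrcc1 (0.34 beside -0.22). By chromosome, the median log2 fold change of genes with a mean above 100 ranged over the autosomes from -0.57 on chromosome 15 to 0.36 on chromosome 6. Xrcc6 lies on chromosome 15, and of the 37 other genes within 1 Mb that do not overlap it, 34 were lower and 0 higher, with a median of -0.60. Brca2 lies on chromosome 5 (median 0.19), where 8 of 10 genes within 1 Mb were higher and 2 lower (median 0.57), and its value less the chromosome median was 0.97. Rad51d kept -0.65 after the subtraction.

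Mdc1 and Rnf8 both lie on chromosome 17, whose median was -0.46. Within 1 Mb of Mdc1, 61 of 75 genes were lower, and within 1 Mb of Rnf8, 16 of 22. After the chromosome median was subtracted, Rad52, on chromosome 6, came to 0.0073, and Parp1, on chromosome 1, to -0.017. Dna2, on chromosome 10 (median -0.39), came to 0.58. Of the 30 members past the adjusted p, 27 kept their direction, the exceptions being Mdc1, Rnf8 and Parp1. Direction here is the sign alone, whatever the size that was left. Among the 27, Bard1 came to 0.011, Exo1 to 0.031, Atr to 0.062 and Mre11a to 0.063. The branch medians became 0.093 for break signalling, 0.057 for homologous recombination, -0.24 for end joining and 0.15 for single-strand break repair. Over the 41 members, their own log2 fold change and the median of genes within 1 Mb had a Pearson correlation of 0.34 as a description, with all points from the same 4 libraries. The part of these chromosome-wide shifts in the members' changes was not tested.

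**Figure D5:**
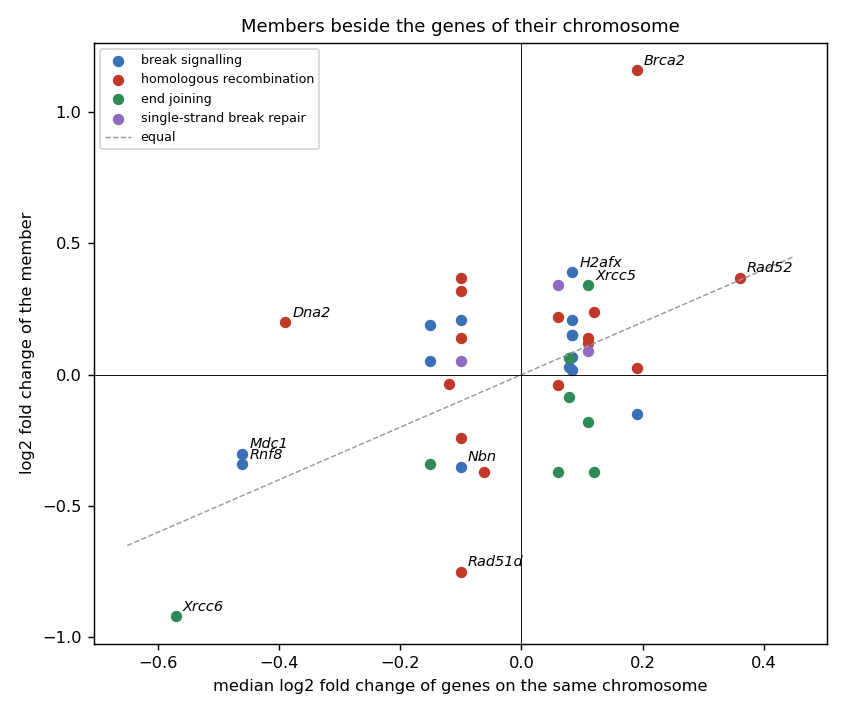
Log2 fold change of each member (vertical axis) against the median log2 fold change of the genes with a mean normalized count above 100 on its chromosome (horizontal axis), coloured by branch, with a dashed line where both are equal. Xrcc6 lies at the lower left (-0.92 at -0.57), Rad52 lies on the line, and Brca2 lies far above it.

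Promoter windows, from 250 bases before to 50 after the start of the RefSeq gene (GRCm38.p6), were found for 30 of the 41 members and searched on both strands. Some members have several windows. Members were counted by gene, with a match in any window, whereas the comparison shares were counted by window. An E2F motif (TTTGGCGC, TTTCCCGC, TTTCGCGC or TTTGCCGC) was present in 6 of 30, or 20.0%, against 2.26% of all 32851 windows and 2.85% of those of protein-coding genes. The 6 were Chek2, Mdc1, Brca2, Bard1, Rad51c and Xrcc6, of which Brca2, Bard1 and Rad51c were higher and the others lower. The motif thus occurred in members that moved in either direction. The SP1 motif GGGCGG was present in 22 of 30 members, or 73.3%, against 35.7% of all windows and 46.2% of protein-coding ones. The CCAAT box (CCAAT) was in 15 of 30 members against 37.4% of all windows. The ETS motif CCGGAAGT was in 13.3% of members against 3.89%, the NRF1 motif in 6.67% against 0.971%, and the CHR motif TTTGAA in 10.0% against 17.9%. Matches to the SP1 and E2F motifs can overlap each other, and a match is a description of letters in the window.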

How the data were processed

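Whole-number counts per gene and repeat family were deposited by the authors, without normalization, for 2 wt and 2 Top2β-null libraries. The study's methods state that the authors ran Trim Galore! on the reads and STAR to align what was left to mm10, keeping reads with many alignments, and used TEtranscripts to count over genes of Gencode and families of RepeatMasker. The labels name a stranded library kit. The strand setting and the handling of reads with several alignments in counting are not given in the sources used here. Columns were matched to libraries by their labels.

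Of 54842 gene identifiers, 54409 matched GENCODE M21, which gave symbols, positions and exon lengths. The filter asked for 10 or more counts in 2 or more libraries and kept 26566 features, of which 25085 are genes. Tests used edgeR 4.0.16 in R 4.3.3, with TMM factors over genes and repeats, quasi-likelihood fits with genotype alone in the model, and Benjamini-Hochberg adjustment over all features. Standard errors are absolute log2 fold changes over the square root of F. The fits were tested on simulated data. Few features were changed in the simulation, so it does not bear on the scaling or the calls of these data. Chi-square over degrees of freedom between replicates was 3.65 in wt and 5.07 in Top2β-null cells, above sampling noise. All 4 libraries were kept.

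The members and lists were chosen with earlier results of these data known. Values per library are given for members past all cut-offs, for the 4 largest changes in each branch and for 10 listed genes. For other pathway genes, the 3 largest changes in each direction are named. Xrcc3 and the overlapping and neighbouring genes were added after their values were seen. Alternatives were DESeq2 1.42.0, TMM factors over genes only, scaling to the total count, other count filters, the replicate number as a block and leaving out each library. Subtracting chromosome medians was chosen after seeing the data.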

Additional observations from a re-analysis of the deposited data

How the results depend on the processing

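Over the alternative fits, 18 to 25 members were higher and 10 to 12 lower, Brca2 was higher by all cut-offs and 0 members were lower. Scaling to the total count, which moved the median of all genes with a mean above 100 from -0.015 to 0.055, gave branch medians of 0.13 for break signalling, 0.21 for homologous recombination, -0.19 for end joining and 0.16 for single-strand break repair. Homologous recombination had 0.15 with TMM factors over genes only and 0.16 without a filter. Subtracting chromosome medians, an alternative chosen after seeing the data, gave 0.093, 0.057, -0.24 and 0.15 in the same order. When 1 library was left out at a time, the medians ran from 0.046 to 0.10, from 0.11 to 0.19, from -0.35 to -0.20 and from 0.061 to 0.13.

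Scaling to the total count turned Rbbp8 to 0.034 and Blm to 0.031. With each library left out, Chek1 ran from -0.0084 to 0.074, Rnf168 from -0.015 to 0.072, Xrcc2 from -0.031 to 0.073, Rbbp8 from -0.068 to 0.0049 and Blm from -0.077 to 0.016. Chek2 no longer passed with DESeq2 (adjusted p = 0.055) or scaling to the total count (adjusted p = 0.12). In the fits that kept all libraries, without the subtraction of chromosome medians, 229 member values changed neither call nor direction, 13 newly passed, 2 no longer passed and 2 changed direction. After that subtraction, 32 of 41 members had the same sign, whatever the size that was left. With 1 library left out, the 4 numbers were 151, 6, 2 and 5. The cause of these changes was not tested. With the replicate block, 19 members were higher and 11 lower, the branch medians were the same (0.14 for homologous recombination and -0.26 for end joining), and no member's call changed. Over 17952 features, libraries that share a number deviated from their group means with a correlation of 0.0207, so nothing shows that the numbers pair the libraries. Nhej1, with 154 to 203 normalized counts per library, is the member whose depth limits its value most.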
